A study of Mus musculus with 6 samples.

Results

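The urea cycle and ammonia genes of the mouse liver were followed across 6 libraries of poly(A) RNA, 3 from livers heterozygous for the MommeD48 allele of Ing5 (Ing5 MommeD48/+, Het) and 3 from Ing5 +/+ livers (WT). All mice were of the FVB strain and 84 days old. The 10 genes were fixed by name: the cycle enzymes Cps1, Otc, Ass1, Asl and Arg1, the cofactor enzyme Nags, the mitochondrial carriers Slc25a15 and Slc25a13, and the ammonia enzymes Gls2 and Glud1. They are 10 of the 37991 Ensembl gene IDs with counts, and all 10 passed the low-count filter that left 12631 genes for testing. Ing5 encodes a subunit of histone acetyltransferase complexes, and the MommeD alleles were found by mutagenesis of mice carrying a silenced reporter transgene. The nature of the MommeD48 lesion is not given in the labels. Ing5 itself had 9.33 ± 0.607 normalised CPM (library-scaled counts) in Het livers and 9.65 ± 0.807 CPM in WT livers (SD, n = 3 each).

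The urea cycle turns ammonia from amino acid breakdown into urea, partly in the mitochondrial matrix and partly in the cytosol of hepatocytes. Its enzymes are most abundant in the hepatocytes around the portal vein, where glutaminase also feeds ammonia into the cycle. Hepatocytes around the central vein instead trap leftover ammonia as glutamine. Cycle enzyme transcripts are known to respond to dietary protein, glucagon and glucocorticoids.

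Total counts ran from 20032822 to 21402396 in Het libraries and from 19840541 to 22041117 in WT libraries, and TMM factors from 0.977 to 1.02. Hepatocyte identity genes (12 genes) summed to 107090 to 127490 CPM in Het livers and 103990 to 122830 CPM in WT livers. Kidney and gut also make urea cycle transcripts: kidney markers summed to 0.0460 to 0.191 CPM in Het livers and 0.144 to 0.272 CPM in WT livers, with 3 of 7 at 0 in all libraries, while gut markers summed to 490.2 to 1578 CPM in Het livers and 373 to 647 CPM in WT livers. That sum was mostly Apoa4, which hepatocytes also make, and 5 of the 9 gut markers were at 0 in all libraries (Lct, Sis, Cdx1, Alpi and Reg3g). Apoa4 was highest in Het replicate 1, at 1455 CPM. No library was a copy of another (chi-square per degree of freedom 10.2 to 79.9 between libraries). Nothing in the labels says whether the numbered livers of a genotype came from different mice. The p-values therefore describe the spread between these particular samples, and how much of that spread is technical was not tested.

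None of the 10 genes passed the test between Het and WT livers. With edgeR's quasi-likelihood test and Benjamini-Hochberg adjustment over all 12631 genes, 0 of 10 passed an adjusted p of 0.05 (adjusted p = 0.9998 for each), against 0% (0 genes) of all genes tested. DESeq2 called 13 of all genes and limma-voom 0, and neither called any of the 10. At an unadjusted p under 0.05, 0 of the 10 passed with edgeR, 0 with DESeq2 and 0 with limma-voom, where 4.33% of all genes (547) passed with edgeR. Values were higher in Het livers for 7 of the 10 genes and lower for 3, with a median log2 fold change of 0.02, beside 50.3% higher and a median of 0.00088 over all genes tested. Het and WT values overlapped for all 10, while they did not overlap for 8.99% of all genes. Among the 10, the cycle enzymes and Gls2 varied most between livers, with low and higher livers in both genotypes. Het replicate 1 and WT replicate 2 were the lowest pair for each of these genes.

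**Figure D1:**
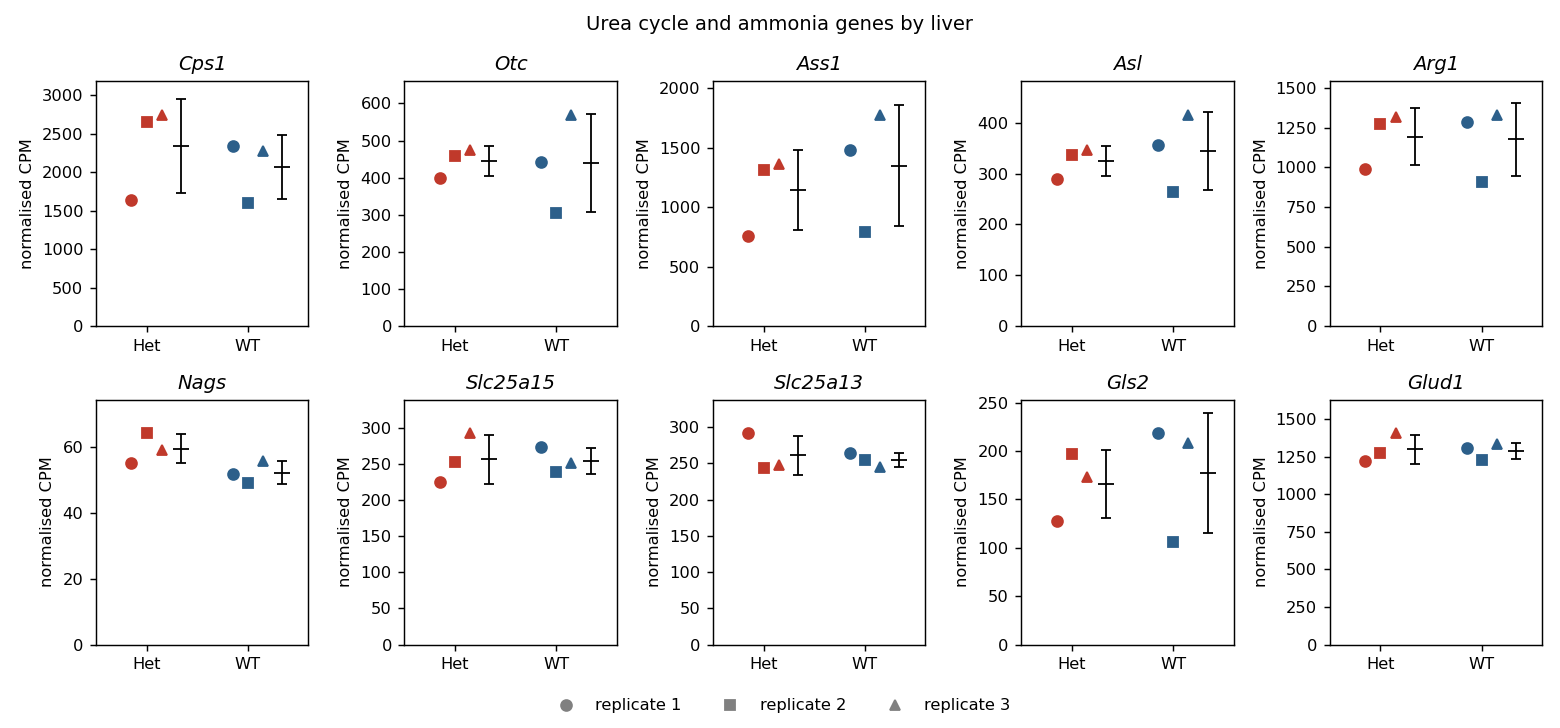
Normalised CPM (vertical axes, from 0) of the 10 urea cycle and ammonia genes in each liver, Het on the left and WT on the right of each panel. Symbols mark the replicate, and the bar to the right of each group is its mean ± SD (n = 3). Het replicate 1 and WT replicate 2 lie lowest for Cps1, Otc, Ass1, Asl, Arg1 and Gls2, and the groups overlap in every panel.

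Cps1 (ENSMUSG00000025991, chromosome 1), the mitochondrial synthetase that joins ammonia and bicarbonate into carbamoyl phosphate, had 1638, 2650 and 2747 CPM in Het replicates 1 to 3, against 2345, 1595 and 2283 CPM in WT replicates 1 to 3. Het replicate 1 stood with WT replicate 2, and the other livers of both genotypes lay well above them. The means were 2345 ± 614 CPM in Het livers and 2074 ± 417 CPM in WT livers, a log2 fold change of 0.18 (SE 0.22, 95% interval -0.33 to 0.68). Without WT replicate 2 the log2 fold change was 0.02, and without Het replicate 1 it was 0.38.

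Otc (ENSMUSG00000031173, chromosome X), which makes citrulline from ornithine and carbamoyl phosphate, had 399.6, 459 and 475 CPM in Het livers, against 442, 306 and 569 CPM in WT livers. The WT livers held both the lowest and the highest value, and all Het values lay between them. The means were 444 ± 39.6 CPM in Het livers and 439 ± 132 CPM in WT livers (log2 fold change 0.02, SE 0.20).

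Ass1 (ENSMUSG00000076441, chromosome 2), the cytosolic enzyme that joins citrulline to aspartate, varied most of the 10 genes. It had 760.3, 1316 and 1366 CPM in Het livers, against 1485, 788 and 1777 CPM in WT livers. The highest liver thus had 2.34 times the level of the lowest, and both low livers stood apart from the other four. The means were 1148 ± 336 CPM in Het livers and 1350 ± 508 CPM in WT livers, with a log2 fold change of -0.23 (SE 0.35, 95% interval -1.08 to 0.61). Ass1 has a processed pseudogene, Gm5424, whose transcript was 99.5% identical over 1240 bases, so the counts of Ass1 are uncertain where reads could be shared. Gm5424 held 2 to 8 counts in Het libraries and 3 to 10 in WT libraries, at most 0.0346% of the Ass1 counts.

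Asl (ENSMUSG00000025533, chromosome 5), which splits argininosuccinate into arginine and fumarate, had 291, 336 and 346 CPM in Het livers, against 356, 263 and 416 CPM in WT livers. The order of the livers was close to that of Ass1, over a smaller range. The means were 324 ± 29.7 CPM in Het livers and 345 ± 77.0 CPM in WT livers (log2 fold change -0.09, SE 0.16). Arg1 (ENSMUSG00000019987, chromosome 10), the arginase that releases urea, had 987, 1273 and 1316 CPM in Het livers, against 1287, 909 and 1330 CPM in WT livers. Again the lowest Het liver was replicate 1 and the lowest WT liver was replicate 2, and the other 4 lay between 1273 and 1330 CPM. Its means were 1192 ± 179 CPM in Het livers and 1175 ± 232 CPM in WT livers (log2 fold change 0.02, SE 0.17).

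Nags (ENSMUSG00000048217, chromosome 11) makes N-acetylglutamate, the activator that Cps1 protein needs. It had the smallest unadjusted p of the 10 genes and the lowest level. Its values were 55.2, 64.2 and 59.2 CPM in Het livers, against 51.8, 48.9 and 55.8 CPM in WT livers. The groups overlapped only where WT replicate 3 exceeded Het replicate 1. The means were 59.5 ± 4.46 CPM in Het livers and 52.2 ± 3.44 CPM in WT livers, a log2 fold change of 0.19 (SE 0.09, 95% interval -0.01 to 0.39; edgeR unadjusted p = 0.0559, Benjamini-Hochberg adjusted p = 0.9998). An exact permutation test (two-sided) on log2 levels gave p = 0.2, and 3 against 3 livers cannot give less than 0.1. The value was positive under all 15 alternatives, from 0.12 to 0.24, with adjusted p from 0.353 to 0.99998 across them (edgeR, DESeq2 or limma-voom, Benjamini-Hochberg). An antisense gene, Gm11586, covers 15.6% of the Nags exon length and held 6, 21 and 22 counts in Het libraries and 7, 13 and 12 in WT libraries, at most 1.81% of the Nags counts. The counting strand was not given in the sources used here, so reads of the overlap cannot be told apart.

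The carriers and Glud1 were steadier. Slc25a15 (ENSMUSG00000031482, chromosome 8) exchanges ornithine for citrulline across the inner mitochondrial membrane and had 225, 253 and 293 CPM in Het livers, against 273, 239 and 251 CPM in WT livers. Slc25a13 (ENSMUSG00000015112, chromosome 6) is citrin, which exports the mitochondrial aspartate that Ass1 uses. It had 291, 243 and 248 CPM in Het livers, against 265, 255 and 245.5 CPM in WT livers. It was the exception among the 10 genes in that Het replicate 1 was its highest liver. Glud1 (ENSMUSG00000021794, chromosome 14), glutamate dehydrogenase, had 1220 to 1406 CPM in Het livers and 1231 to 1333 CPM in WT livers, and its highest liver was 1.15 times its lowest. A Glud1 pseudogene, Glud-ps, was 97.6% identical over 656 bases, so the Glud1 counts are uncertain in the same way. The log2 fold changes of Slc25a15, Slc25a13 and Glud1 were 0.01 (SE 0.12), 0.03 (SE 0.10) and 0.0098 (SE 0.11).

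Gls2 (ENSMUSG00000044005, chromosome 10), the liver-type glutaminase that releases ammonia from glutamine, followed the cycle enzymes. It had 128, 197 and 173 CPM in Het livers, against 218, 106 and 208 CPM in WT livers. The low values were again those of Het replicate 1 and WT replicate 2, and the range was 2.06-fold. The means were 166 ± 35.3 CPM in Het livers and 177 ± 62.0 CPM in WT livers (log2 fold change -0.10, SE 0.31). Its exons overlap those of Spryd4 on the other strand by 97 bases, 2.79% of their length.

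**Figure D2:**
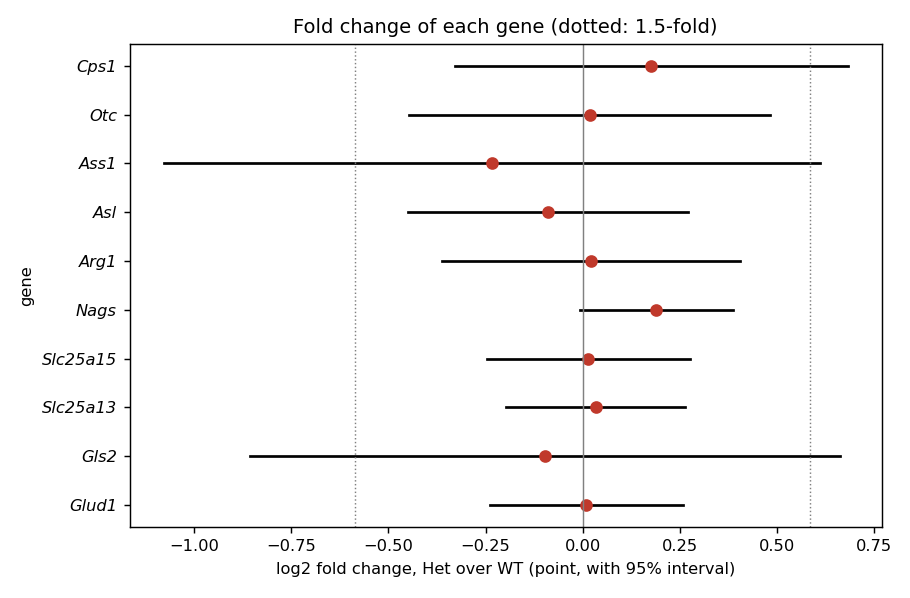
Log2 fold change of Het over WT livers for each gene (horizontal axis), with the point estimate and its 95% interval from the edgeR fit over all genes. Dotted lines mark 1.5-fold, and the intervals of Ass1, Gls2 and Cps1 reach past them.

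The intervals give the range of genotype differences that the main fit allows, given the spread between these libraries. They hold for that fit alone, which has no covariate. For 7 of the 10 genes the 95% interval of the fold lay within 1.5-fold, compared with 71.1% of all genes tested. The exceptions were Cps1, with a fold of 1.13 (0.796 to 1.61), Gls2, with 0.935 (0.552 to 1.58), and Ass1, with 0.850 (0.473 to 1.53). Ass1 was the one gene whose interval reached past 2-fold. The narrowest on the log2 scale were those of Nags, with a fold of 1.14 (0.996 to 1.31), Slc25a13 (0.873 to 1.20), Glud1 (0.848 to 1.196) and Slc25a15 (0.843 to 1.21). For all 10 genes the wider of the Het and WT ranges of log2 levels was larger than the difference between the genotype means. The share of all genes tested for which this held was not counted, so it cannot be called particular to the 10.

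**Figure D3:**
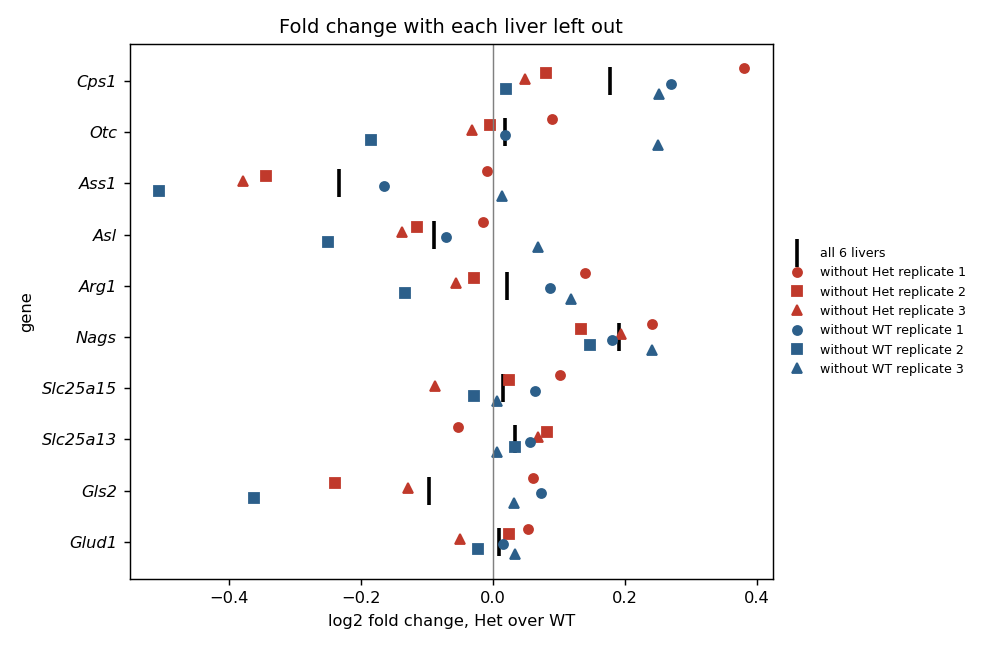
Log2 fold change of Het over WT livers (horizontal axis) for each gene with all 6 livers (black bar) and with each liver left out in turn (symbols). Leaving out WT replicate 2 moved Ass1 to -0.51 and Gls2 to -0.36, and leaving out WT replicate 3 moved Otc to 0.25.

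Which liver was left out decided the sign for most of the genes. Without WT replicate 2, the log2 fold change was -0.51 for Ass1, -0.19 for Otc and -0.36 for Gls2. Leaving out WT replicate 3 instead gave 0.014 for Ass1 and 0.25 for Otc, and leaving out WT replicate 1 gave 0.07 for Gls2. The values of Asl, Arg1, Slc25a15, Slc25a13 and Glud1 also crossed 0, within a smaller range. Nags and Cps1 were positive with any liver left out.

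**Figure D4:**
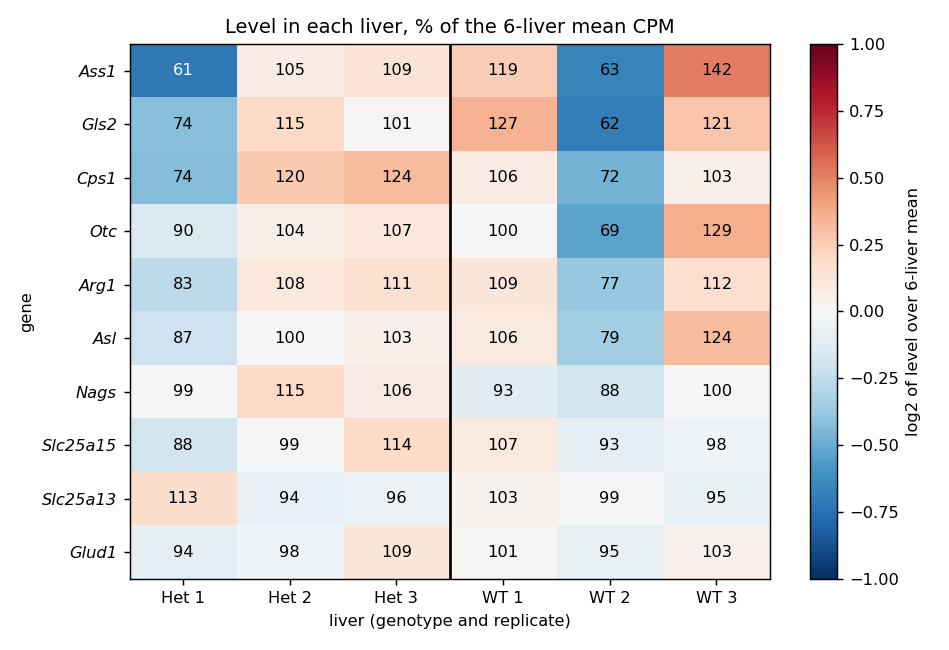
Level of each gene (rows) in each liver (columns, Het left and WT right), as a percentage of that gene's mean CPM over the 6 livers, coloured by its log2. Ass1 stood at 60.9% in Het replicate 1 and 63.1% in WT replicate 2, while Glud1 stayed between 94.2% and 109% in all 6 livers.

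The low livers were shared between genes. Het replicate 1 and WT replicate 2 were the lowest pair of livers for 8 of the 10 genes, all but Nags and Slc25a13. Over all genes tested this pair was lowest for 7.20% (909 genes). The pair was picked after the values were seen, so this count describes these 6 livers and was not tested. Relative to the 6-liver mean of each gene, levels in Het replicate 1 ran from 60.9% for Ass1 through 74.1% for Cps1 and 74.3% for Gls2 to 113% for Slc25a13. In WT replicate 2 they ran from 61.8% for Gls2, 63.1% for Ass1 and 69.2% for Otc to 98.9% for Slc25a13. All 10 genes were below their own mean log2 level in WT replicate 2 and 9 of 10 in Het replicate 1, against 1 to 3 of 10 in each other liver. The matching share of all genes tested was not counted for any liver, so these counts have no background beside them. Summed over the 10 genes, the level was 5995, 8066 and 8429 CPM in Het livers and 8031, 5740 and 8469 CPM in WT livers. In bulk tissue, fewer periportal cells and less RNA per cell cannot be told apart.

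The genes also differed in how much they varied. Their SD of log2 CPM over the 6 livers was 0.50 for Ass1, 0.42 for Gls2, 0.34 for Cps1, 0.30 for Otc, 0.24 for Arg1 and 0.23 for Asl. It was 0.14 for Nags and for Slc25a15, 0.098 for Slc25a13 and 0.077 for Glud1, where the median over all genes tested was 0.16. The 5 cycle enzymes and Gls2, 6 of the 10 genes, varied more than the median gene. A median splits the genes tested evenly, so that count lies near the share over all genes.

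Per kilobase of merged exon length (GENCODE M21), Arg1, Ass1 and Cps1 were the most abundant of the 10. That length counts every annotated exon, whether or not it was used in these livers, so the order of genes also depends on the annotation. Arg1 had 535 ± 80.3 CPM per kb in Het livers and 527 ± 104 CPM per kb in WT livers, Ass1 475 ± 139 and 559 ± 210, and Cps1 422 ± 111 and 373 ± 75.0. Arg1 exceeded Ass1 in 4 of 6 livers, so their order is within the spread, while Ass1 exceeded Cps1 in 6 of 6 and Cps1 exceeded Glud1 in 5 of 6. Glud1 followed with 309 ± 22.7 CPM per kb in Het livers and 307 ± 12.7 in WT livers, and Otc with 105 ± 9.33 and 103 ± 31.1. Asl and Slc25a13 (67.1 and 68.7 CPM per kb in Het livers, 71.4 and 67.2 in WT livers) did not differ beyond their spread, nor did Gls2 and Slc25a15 (47.7 and 45.7 in Het livers, 51.1 and 45.2 in WT livers). Nags was the least abundant, with 20.98 ± 1.57 CPM per kb in Het livers and 18.4 ± 1.21 in WT livers.

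Promoter sequences are shown for Otc and Ass1, which were both low in Het replicate 1 and WT replicate 2, and for Nags, which did not have those livers as its lowest pair. They come from RefSeq (GRCm38.p6), where 6 of the 10 genes matched an entry, with 7 promoters. Cps1, Asl, Arg1 and Gls2 were not among them. Each stretch is on the plus strand, begins 250 bases before the RefSeq transcript start and stops before any annotated exon. Otc spans chrX:10252055-10252229, Ass1 spans chr2:31470020-31470206 and Nags spans chr11:102145263-102145512, and capitals mark GC boxes.
Otc: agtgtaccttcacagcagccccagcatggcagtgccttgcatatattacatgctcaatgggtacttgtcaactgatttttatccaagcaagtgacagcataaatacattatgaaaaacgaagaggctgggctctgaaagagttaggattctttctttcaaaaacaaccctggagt
Ass1: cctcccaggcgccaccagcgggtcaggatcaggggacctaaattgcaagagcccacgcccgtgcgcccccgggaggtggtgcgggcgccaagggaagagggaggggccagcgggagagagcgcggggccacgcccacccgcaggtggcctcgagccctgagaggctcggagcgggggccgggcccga
Nags: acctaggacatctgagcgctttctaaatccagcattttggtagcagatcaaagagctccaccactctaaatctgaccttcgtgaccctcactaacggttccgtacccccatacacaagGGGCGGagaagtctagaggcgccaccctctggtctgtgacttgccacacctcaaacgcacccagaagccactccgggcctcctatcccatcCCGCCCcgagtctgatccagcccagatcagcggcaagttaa
The 250 bases before the start were 43.6% G and C for Otc, 75.6% for Ass1 and 55.6% for Nags. A GC box (GGGCGG, either strand) was found in 5 of the 7 promoters, both of Slc25a15 among them, beside 32.7% of 32851 promoters of the same length. This search took all 250 bases, annotated exons included, for the 7 and for all promoters alike. The windows of Slc25a15 and Glud1 began inside an annotated exon or gene. Only Nags had GC boxes before any annotated exon or gene base of its window. Nags holds it 132 to 127 and 41 to 36 bases before the start, and Ass1 holds it 63 to 58 bases before the start, past the stretch shown. CCAAT was found in 1 of 7 (Slc25a13), beside 33.8% of all promoters, and TATAAA in 0 of 7, beside 12.4%. The cAMP response element TGACGTCA (1.55% of all promoters), the C/EBP palindrome TTGCGCAA (0.164%) and the HNF4 motif CAAAGTCCA (0.384%) were found in 0 of 7. In 1 promoter of Slc25a15, GC boxes 12 to 7 and 8 to 3 bases before the start share letters, and no other matches overlapped.

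Genes around the cycle were summarised from lists. Of 29 tested genes for ammonia, glutamine, ornithine and aspartate handling, 0 passed the adjusted test, and 2 had an unadjusted p under 0.05 (edgeR), 1 higher and 1 lower in Het, beside 2.12% higher and 2.21% lower over all genes. Their median log2 fold change was -0.05. Odc1, which makes putrescine from ornithine, had 71.6, 78.5 and 71.2 CPM in Het livers, against 62.3, 58.4 and 58.6 CPM in WT livers (log2 fold change 0.30, SE 0.08; edgeR unadjusted p = 0.0035, Benjamini-Hochberg adjusted p = 0.9998). Every Het value lay above every WT value, and the groups did not overlap for 2 of the 29 genes, beside 8.99% of all genes. Prodh, a proline oxidase gene, had 122.6 ± 13.5 CPM in Het livers and 151 ± 20.1 CPM in WT livers (-0.30, SE 0.12). The most abundant were the amino acid transporters Slc38a3, with 1393 ± 92.1 CPM in Het livers and 1625 ± 164 CPM in WT livers, and Slc38a4, with 1205 ± 157 and 1148 ± 121 CPM. Glul, the pericentral glutamine synthetase gene, had 644, 565 and 521.5 CPM in Het livers, against 629.5, 629.5 and 601 CPM in WT livers (-0.10, SE 0.11). It did not have the low values of Het replicate 1 and WT replicate 2. Glul is named here as the partner of Gls2, outside the rule for named genes.

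Of 45 amino acid catabolism genes, 26 were higher and 19 lower in Het livers, beside 50.3% higher over all genes. Their median log2 fold change was 0.05. In the edgeR test 0 passed, against 0% of all genes, and 1 had an unadjusted p under 0.05, against 4.33%. That gene was Amt, of the glycine cleavage system, with 26.1, 30.0 and 33.5 CPM in Het livers, against 23.9, 22.8 and 22.3 CPM in WT livers (0.38, SE 0.10; Benjamini-Hochberg adjusted p = 0.9998). The groups did not overlap, as for 3 of the 45 genes and 8.99% of all genes. Aadat, an aminoadipate aminotransferase gene, had 152 ± 21.6 CPM in Het livers and 124 ± 17.9 CPM in WT livers. The most abundant were Mat1a, which makes S-adenosylmethionine, with 2491 ± 181 CPM in Het livers and 2759 ± 69.7 CPM in WT livers, and Tdo2, which opens the tryptophan ring, with 1938 ± 118 and 1867 ± 154 CPM. Het replicate 1 and WT replicate 2 were the lowest pair for 15 of these 45 genes, Tat, Hpd and Hgd among them, and for 6 of the 29 above. Tat, the tyrosine aminotransferase gene, had 500.2, 618 and 1068 CPM in Het livers, against 837, 522 and 1067 CPM in WT livers.

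Of 21 genes for regulators of the cycle 0 passed the edgeR test and 1 had an unadjusted p under 0.05, beside 4.33% of all genes. The median log2 fold change was 0.09, with 13 higher and 8 lower, beside 50.3% higher over all genes. Hnf4a, a nuclear receptor gene of hepatocyte identity, had 568 ± 37.9 CPM in Het livers and 584 ± 112 CPM in WT livers, and Cebpa 361 ± 4.71 and 326 ± 47.7 CPM. Creb1, the cAMP response factor gene, had 20.1 ± 0.483 CPM in Het livers and 17.8 ± 0.493 CPM in WT livers. The low pair of livers was the lowest for 3 of the 21, Cebpb, Klf15 and Crem.

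**Figure D5:**
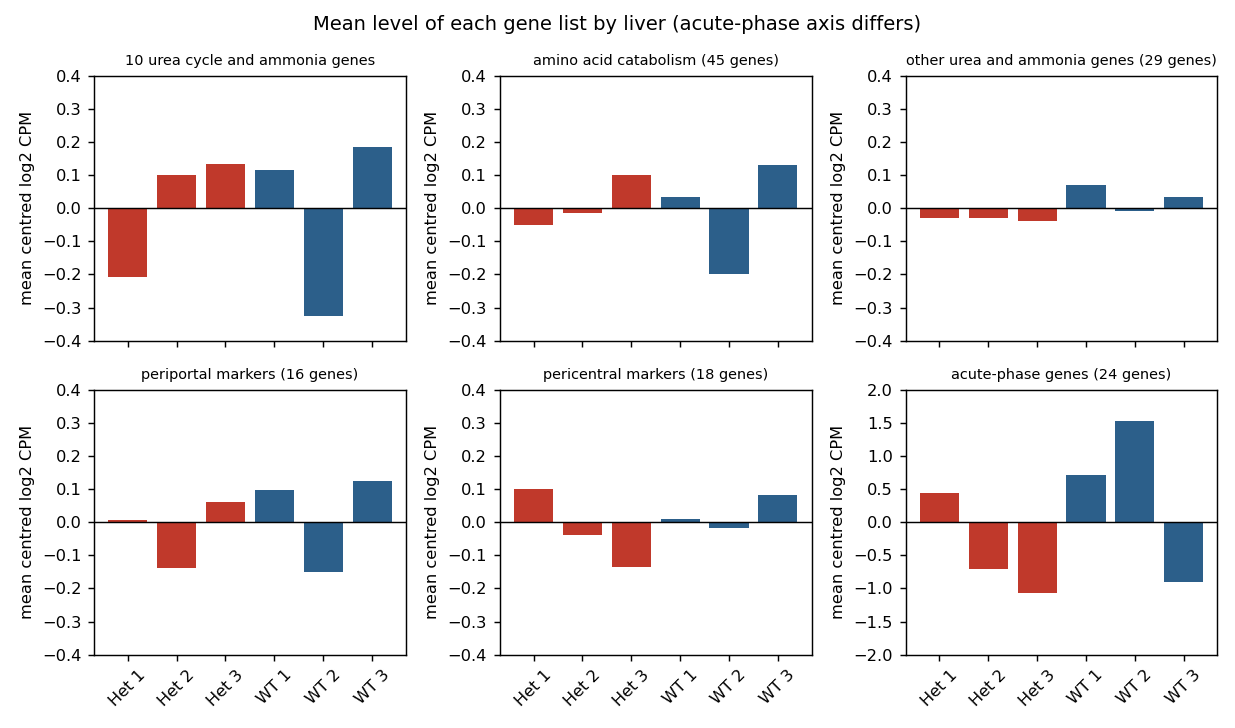
Mean centred log2 CPM of each gene list (vertical axes) in each liver, Het in red on the left and WT in blue on the right. The 10 urea cycle and ammonia genes stand at -0.21 in Het replicate 1 and -0.32 in WT replicate 2, and the acute-phase panel has a wider axis than the other five.

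Other states of the livers were set beside the low pair. The mean centred log2 CPM of the 10 genes was -0.21, 0.10 and 0.13 in Het livers and 0.11, -0.32 and 0.18 in WT livers. Periportal markers other than the 10 genes (16 tested) had means of 0.0073, -0.14 and 0.06 in Het livers and 0.10, -0.15 and 0.12 in WT livers, so Het replicate 1 was not low. Pericentral markers (18 tested) had 0.10, -0.04 and -0.14 in Het livers and 0.0092, -0.02 and 0.08 in WT livers. In both lists 0 genes passed the edgeR test and 0 had an unadjusted p under 0.05, beside 0% and 4.33% of all genes. The pair was the lowest for 3 of the 16 periportal and 2 of the 18 pericentral genes.

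The 2 most abundant periportal markers were Pck1, the gluconeogenic enzyme gene that fasting induces, and Pigr, a receptor for polymeric immunoglobulins. Pck1 had 1446, 894 and 1997 CPM in Het livers, against 2356, 1856 and 1882 CPM in WT livers (log2 fold change -0.49, SE 0.27), and its lowest livers were Het replicates 1 and 2. Pigr had 1692 ± 169.6 CPM in Het livers and 1691 ± 227 CPM in WT livers. Cdh1, the E-cadherin gene, had 24.9 ± 7.88 CPM in Het livers and 17.8 ± 2.04 CPM in WT livers, and Gldc, of the glycine cleavage system like Amt, had 143 ± 19.0 and 119 ± 15.4 CPM. Among pericentral markers, the cytochrome P450 gene Cyp2e1 had 8915 ± 453 CPM in Het livers and 8101 ± 506 CPM in WT livers, and Rgn had 1340 ± 84.2 and 1444 ± 246 CPM. Cdh1 was also lowest in Het replicate 1 and WT replicate 2, as were the periportal markers Sds and Etnppl and the pericentral markers Rgn and Oat.
 
Acute-phase genes (24 tested), which the liver induces in inflammation, had means of 0.44, -0.71 and -1.07 in Het livers and 0.71, 1.54 and -0.90 in WT livers. Het replicate 1 and WT replicate 2 were the highest liver of their genotype in that list, and WT replicate 1 had the second highest value of all without low urea cycle levels. The summed level of the 24 acute-phase genes ran from 24206 to 35179 CPM in Het livers and from 22480 to 59583 CPM in WT livers, and none of them was at 0 in all 6 libraries. Of the 24, 1 had higher and 23 had lower values in Het livers (median log2 fold change -0.51), beside 50.3% higher over all genes. In the edgeR test 0 passed, and Saa4 alone had an unadjusted p under 0.05, beside 4.33% of all genes. Saa4, a serum amyloid gene, had 405, 449 and 440 CPM in Het livers, against 835, 1035 and 438 CPM in WT livers. Orm3, an orosomucoid gene, had 1.29, 0.0460 and 0 CPM in Het livers, against 3.66, 6.31 and 0.566 CPM in WT livers. The most abundant, the complement gene C3 and the fibrinogen gene Fgb, had 6433 ± 821 and 3537 ± 51.1 CPM in Het livers and 7728 ± 2633 and 4484 ± 1399 CPM in WT livers. The part of the acute-phase state in the low levels was not tested. Mitochondrial genes took 11.6% of the counts in Het replicate 1 and 10.8% in WT replicate 2, against 11.4% to 13.4% in the other livers.

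With the acute-phase score as a covariate, Ass1 had a log2 fold change of -0.65 (edgeR unadjusted p = 0.00575, Benjamini-Hochberg adjusted p = 0.896) and Asl of -0.27 (unadjusted p = 0.0234, adjusted p = 0.998). These were the 2 genes of the 10 with an unadjusted p under 0.05 in that fit, where 4.69% of all genes (592) had one, and 0 of 10 passed, against 0% of all genes. Over its alternatives the adjusted p of Ass1 ran from 0.896 to 0.99998 and that of Asl from 0.8995 to 0.99998. The score came from the same libraries, and 23 of its 24 genes had lower values in Het livers. Genotype and score could therefore not be fully separated in this fit.

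The genes outside the list whose profile over the 6 livers was closest to the mean profile of the 10 were Hgd, Nqo2, Sec61b, Ppp4r4 and Gstm1. Closeness was the root-mean-square difference of centred log2 CPM, taken over 4216 genes that varied at least as much as the mean profile. Hgd, the homogentisate dioxygenase gene of tyrosine breakdown, was closest at 0.0323, with 424, 549.8 and 566 CPM in Het livers and 566, 405 and 566 CPM in WT livers. The others, among them the quinone reductase gene Nqo2 and the glutathione transferase gene Gstm1, had differences of 0.0584 to 0.0794, where the median of the 4216 genes was 0.356. These genes were picked for the smallest differences, so their place below that median was fixed in advance. Of the 10 genes themselves Arg1 was closest to their mean profile, at 0.0301, and Ass1 farthest, at 0.279. That profile includes each of the 10, and they did not have to meet the limit on variation set for the other genes.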

How the data were processed

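Libraries were made from liver poly(A) RNA with an Illumina TruSeq RNA kit, per the labels' protocols. The submitters' processing notes name TopHat2 2.0.11, HTSeq 0.6.1, DESeq and mm9 without their roles. The deposited values are raw counts per Ensembl gene, 1 file per library. The annotation release was not given in the sources used here. Symbols matched 32919 of 37991 IDs, and the other 5072 took 0.554% to 0.823% of the counts. The reference (GRCm38) was of another build, so it gave only names, chromosomes, exon lengths, exon overlaps, transcript copies (blastn 2.17.0, at least 90% identity over 200 bases) and RefSeq promoters.

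The count test was that of edgeR 4.0.16 under R 4.3.3 (filterByExpr, TMM, robust quasi-likelihood fit, genotype as the sole factor), with Benjamini-Hochberg adjustment over all genes at 0.05. Depth was about equal across libraries, and the least counted of the 10 genes, Nags, had 1076 counts or more per library, so counting error was small beside the spread between livers. SE and 95% intervals come from each gene's F statistic. CPM values use TMM-scaled sizes of the filtered libraries, and log2 CPM a prior count of 2. The steps were tested on simulated data in which genes varied independently, so a liver state shared by many genes was not covered.

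Alternatives were RLE size factors, no filter, a minimum of 1 CPM in 3 libraries, library sizes computed after dropping the 20 top genes, a fit without robust estimation, a block for the replicate number, the acute-phase score as a covariate, DESeq2 1.42.0, limma-voom (limma 3.58.1) and each library left out. The genes, lists and tests were chosen with earlier results of these data known. Named genes were Ing5, the 10 genes, in each context list (ammonia handling, amino acid catabolism, regulators, periportal and pericentral markers, acute-phase genes) the 2 most abundant and the 2 with the smallest p, and the 5 with the closest profile; members of the cell marker lists are given as sums. Glul, Tat and genes named only for their lowest livers were added after their values were seen. Some genes that the rule names are not reported here.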

Additional observations from a re-analysis of the deposited data

How the results depend on the processing

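The count of 0 of the 10 genes passing held under all 15 alternatives, with 0 to 2 of them at an unadjusted p under 0.05. Over all genes, the count of 0 became 1 without a low-count filter and 13 with DESeq2, and 0 to 17 with each library left out, at 17 without WT replicate 3 and 10 without Het replicate 1. With the replicate number as a block the counts were 0 of the 10 genes and 0 of all genes, no call changed, and the log2 fold changes of Ass1 and Nags were -0.21 and 0.19. Deviations of same-numbered livers correlated across genes at -0.025, -0.078 and 0.22, and those of differently numbered livers at -0.22 to 0.25. Such correlations cannot decide whether livers were paired. The labels give no shared litter or day, so the numbers were not taken to pair the livers.

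Nags kept its sign throughout. With the acute-phase covariate the log2 fold change turned to -0.18 for Arg1, -0.093 for Cps1, -0.049 for Glud1, -0.20 for Otc and -0.060 for Slc25a15. With each library left out it ran from -0.13 to 0.14 for Arg1, from -0.25 to 0.068 for Asl, from -0.51 to 0.014 for Ass1, from -0.36 to 0.073 for Gls2, from -0.050 to 0.053 for Glud1, from -0.19 to 0.25 for Otc, from -0.053 to 0.081 for Slc25a13, from -0.089 to 0.10 for Slc25a15 and from -0.12 to 0.0077 for Ing5. The cause was not tested. The median of the 10 genes ran from -0.13 to 0.075 over the 15 alternatives. With 3 livers a genotype, the spread between livers and not the count depth limits these values.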

Other observations

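Cps1 and Ass1 did not keep a fixed ratio. Cps1 had 2.15, 2.01 and 2.01 counts for each Ass1 count in Het replicates 1 to 3, against 1.58, 2.02 and 1.28 in WT replicates 1 to 3. The Het values lay close together, and WT replicate 2 lay among them. The ratio was picked after the values were seen and was not tested. The 10 genes together took 0.586%, 0.824% and 0.862% of all counts in Het libraries and 0.800%, 0.574% and 0.830% in WT libraries.

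Oat, which feeds ornithine carbons to glutamate in pericentral hepatocytes, had 220, 260.4 and 264 CPM in Het livers and 300.4, 247 and 405 CPM in WT livers (log2 fold change -0.35, SE 0.17; edgeR unadjusted p = 0.0708, Benjamini-Hochberg adjusted p = 0.9998). The arginine transporter gene Slc7a2 had 298, 470.1 and 509 CPM in Het livers and 481, 349.6 and 391 CPM in WT livers. Het replicate 1 and WT replicate 2 were the lowest pair for Slc7a2 and for Oat. Slc7a2 was chosen after its values were seen.

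Markers of other cells were summed per liver. Kupffer cell markers came to 121 to 211 CPM in Het livers and 105 to 194 CPM in WT livers, endothelial markers to 154 to 190 and 155 to 202 CPM, and stellate cell markers to 208 to 255 and 158 to 229 CPM. Bile duct markers came to 28.5 to 31.1 CPM in Het livers and 30.6 to 36.6 CPM in WT livers. Red cell markers came to 106 to 219.7 CPM in Het livers and 179 to 287 CPM in WT livers. Lymphocyte, neutrophil and pancreatic acinar markers each summed to at most 60.8 CPM in Het livers and 57.3 CPM in WT livers.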
